A study of Mus musculus with 11 samples.

Results

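The genes described here are 9 of the 26061 genes in the deposited table: 5 subunits of the phagocyte NADPH oxidase (Cybb, Cyba, Ncf1, Ncf4 and Rac2) and 4 antioxidant enzymes (Sod1, Sod2, Cat and Gpx1). They were chosen by name and not by their values, and all 9 passed the filter on low values that left 12486 genes to test. All RNA was from 1 line, BV2, which derives from mouse microglia and was immortalised. All cells had been transfected by lipofection, either with a non-targeting siRNA (labelled siScr, called control siRNA here) or with siRNAs against Tet2, whose product oxidises methylated cytosine. From 48 h after transfection they received lipopolysaccharide (LPS, a bacterial cell wall component sensed through a Toll-like receptor) at 1 µg/ml for 3 h, or none. The labels call the latter control. The 4 groups are named as in the labels: siScr_Ctrl, control siRNA and no LPS (n = 3), siScr_LPS, control siRNA and LPS (n = 3), siTet2_Ctrl, Tet2 siRNA and no LPS (n = 3), and siTet2_LPS, Tet2 siRNA and LPS (n = 2, replicates 2 and 3).

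The phagocyte NADPH oxidase is an enzyme complex that passes electrons from NADPH across a membrane to oxygen and so makes superoxide. Its membrane core is a pair of proteins, the catalytic subunit made by Cybb and its partner made by Cyba. Cytosolic proteins, among them those made by Ncf1 and Ncf4, and the GTPase Rac join that core when the cell is stimulated. Microglia, the resident phagocytes of the brain, use the same complex. Superoxide is turned into hydrogen peroxide by superoxide dismutases, of which Sod1 makes the cytosolic and Sod2 the mitochondrial enzyme. Catalase, from Cat, and the glutathione peroxidase made by Gpx1 then break the peroxide down.

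The 11 libraries held 8739716 to 23030426 reads on genes, with a median of 18844761. Values are given as normalised reads, which are the reads recovered from the deposited log2 values and scaled for library depth, and as log2 differences of those deposited values. siScr_Ctrl replicate 3, with 8764031 reads, had reads on 16406 genes, where the other 10 had reads on 12866 to 14180. It stood apart in Cyba too, and several results that rest on it are given with and without it. All 10 microglia and macrophage markers were measured. Of the neutrophil markers 4 (Ly6g, S100a8, S100a9 and Ltf) had 0 reads in every library, while Mpo, Elane, Camp and Ngp held 4, 6, 8 and 1 reads in all. Of the 8 neutrophil markers, which mark the other main cell type that makes this oxidase, 0 passed the filter, and together they held at most 5.62 normalised reads in a library. The markers of neurons and astrocytes did not pass the filter either. Neuron markers together reached 24.6 normalised reads in siScr_Ctrl replicate 3, beside 0 in the lowest library of its group. In the other groups they reached at most 3.45 in any library. Of the 2 oligodendrocyte markers Mbp passed, with 7.79 to 43.8 normalised reads in a library, while Mog had 0 reads. Whether replicates came from separate cultures is not in the labels, so p-values measure the spread between these libraries, which may be technical.

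Tet2 reads check the siRNA. Untreated control siRNA cells held 1988, 2399 and 1827 normalised Tet2 reads, and untreated Tet2 siRNA cells 1453, 1988 and 1662, so that these groups overlapped. After LPS they held 10405, 16792 and 14762 with control siRNA and 7969 and 9238 with Tet2 siRNA. These ranges lay apart, as they did for 38.9% of all genes. Neither Tet2 difference passed the test (limma, log2 -0.28 and adjusted p = 0.566 untreated, -0.67 and adjusted p = 0.165 after LPS), which limits the Tet2 siRNA groups as a model of Tet2 loss. The unadjusted limma p after LPS was 0.00906, where 17.1% of all genes were under 0.05 and 0 passed after adjustment.

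Sequence upstream of the start was available for 7 of the 9 members, all but Ncf4 and Rac2, as the 250 bases before the RefSeq transcription start in GRCm38.p6. The sequences of 3 members are shown, of Cybb and Sod2 because they had the largest LPS differences of the 9, and of Ncf1 because it shares a motif with Cybb. They run 5′ to 3′ on the strand of the gene, from 250 bases to 1 base before the start. In Cybb (chrX:9469325-9469574, minus strand) and Ncf1 (chr5:134229626-134229875, minus strand) capitals mark matches to GAAA, any 2 bases and GAAA, the core of the interferon-stimulated response element that interferon regulatory factors bind, on either strand. In Sod2 (chr17:13007589-13007838, plus strand) capitals mark matches to GGG, any 5 bases and CC, a loose form of the NF-kB site, on either strand.
Cybb: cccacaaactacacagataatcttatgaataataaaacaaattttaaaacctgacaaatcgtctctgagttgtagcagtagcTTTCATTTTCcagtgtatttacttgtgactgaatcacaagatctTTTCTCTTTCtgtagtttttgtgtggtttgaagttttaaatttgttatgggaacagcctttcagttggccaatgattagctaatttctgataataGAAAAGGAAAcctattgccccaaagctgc
Ncf1: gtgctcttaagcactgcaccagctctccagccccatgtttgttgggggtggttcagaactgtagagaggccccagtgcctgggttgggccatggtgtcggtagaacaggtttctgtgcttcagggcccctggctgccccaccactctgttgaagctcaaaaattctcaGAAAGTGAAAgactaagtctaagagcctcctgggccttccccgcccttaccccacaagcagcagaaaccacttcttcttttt
Sod2: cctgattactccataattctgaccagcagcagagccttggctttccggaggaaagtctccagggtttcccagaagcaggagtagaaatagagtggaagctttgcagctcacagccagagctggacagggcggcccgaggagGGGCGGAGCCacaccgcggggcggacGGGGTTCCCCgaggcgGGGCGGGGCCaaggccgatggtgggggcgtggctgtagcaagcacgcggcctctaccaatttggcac
Cybb held the interferon-type core at 3 positions, from -168 to -159 and from -124 to -115 on the opposite strand and from -29 to -20 on its own, counted back from the start. Ncf1 held it once, from -82 to -73. These were the 2 members of the 7 with that core, which occurred in 2.98% of the 32851 mouse promoter windows of the same length. Sod2 held the NF-kB letters from -109 to -100, from -83 to -74, where the match reads on both strands, and from -67 to -58. All 7 members held at least 1 match to those letters, which 45.8% of all windows held. Of other letters searched on both strands, GAGGAA, a core bound by the myeloid factor PU.1, was found in Sod2 and Cat (23.3% of all windows), and TGANTCA, the AP-1 site, in Cybb (6.75%). TGA, any 4 bases and GC, a loose antioxidant response element, was found in Sod1 (35.2%). CCAAT was found in Cybb, Sod1, Sod2 and Cat (33.9%), and TATAAA, the TATA box, in Sod1 (12.4%). No match to one motif overlapped a match to another in the 3 sequences shown, and a match is a description of letters and not evidence of a bound site.

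Levels between genes can be compared only per length, here as normalised reads per kb of a gene's merged exons, whose total may exceed the transcript a cell uses. In untreated control siRNA cells the order was Cybb with 4023 ± 1105 (SD, n = 3), Cyba with 3920 ± 3156, Gpx1 with 3799 ± 1062, Sod1 with 2748 ± 52.6, Ncf1 with 1657 ± 74.9, Cat with 1000.5 ± 29.6, Ncf4 with 760.4 ± 119.5, Rac2 with 720.7 ± 60.1 and Sod2 with 206.8 ± 7.03 reads per kb. The ranges of Cybb and Cyba, of Cyba and Gpx1, and of Ncf4 and Rac2 overlapped. Gpx1 and Sod1 met, with the lowest Gpx1 and the highest Sod1 library both at 2804 reads per kb, and the other neighbours in that order lay apart. The place of Cyba rested on siScr_Ctrl replicate 3, at 7556 reads per kb. Without that library Cyba averaged 2102 reads per kb and came below Cybb (4649), Gpx1 (4297) and Sod1 (2772). Cybb ranked 194 of 12205 genes with a known length, and Sod2 ranked 4958. After LPS in the same cells Cybb, with 11851 ± 2395 reads per kb (SD, n = 3), lay apart from all other members and ranked 67. Sod2, with 895.5 ± 86.3 reads per kb (SD, n = 3), ranked 1591 and overlapped with Ncf4, Cat and Rac2. With Tet2 siRNA the untreated order began with Sod1 (2878 reads per kb), Gpx1 (2821) and Cybb (2363), whose ranges overlapped from neighbour to neighbour, and after LPS Cybb was again first with 8611 reads per kb.

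**Figure D1:**
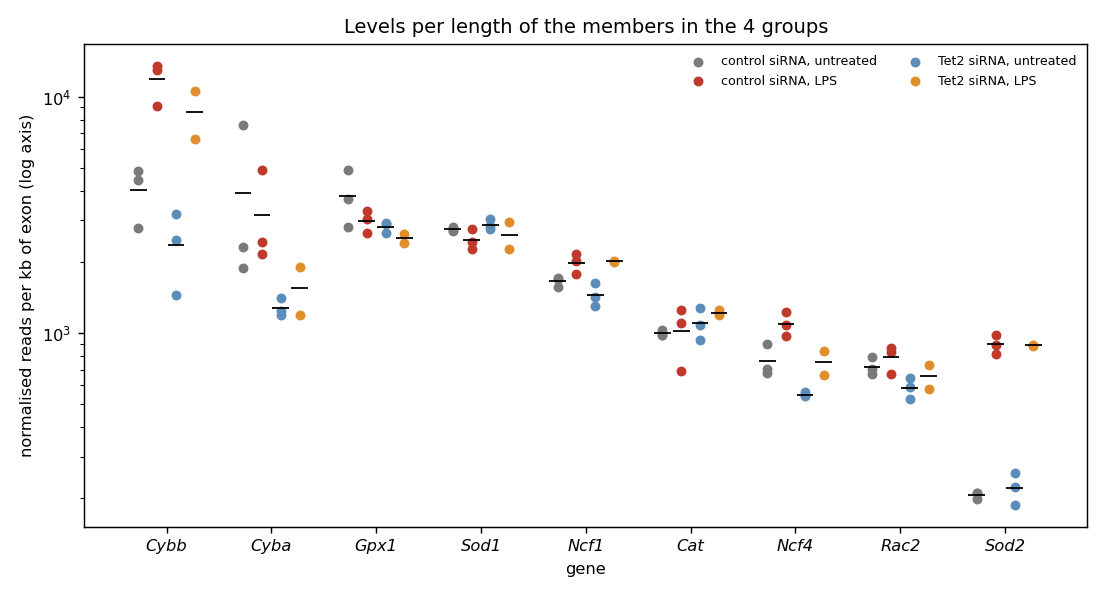
Normalised reads per kb of merged exon (vertical log axis) of the 9 genes, ordered by their mean in untreated control siRNA cells. Each point is a library and each short line a group mean (n = 3, 3, 3 and 2). Cybb holds the highest points and Sod2 the lowest, with the LPS-treated libraries of both above the untreated ones.

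LPS in control siRNA cells asked how these genes responded with the non-targeting siRNA. Cybb, Ncf4 and Sod2 rose and no member fell (limma, Benjamini-Hochberg adjusted p under 0.05 over all genes tested). That is 3 of 9, where 23.7% of all 12486 genes passed, 13.2% higher and 10.4% lower. The same 3 members had an unadjusted p under 0.05, beside 34.7% of all genes. The members had a median log2 difference of 0.12, beside -0.02 over all genes, with 0.25 for the 5 oxidase subunits and -0.08 for the 4 antioxidant enzymes. Cybb, Ncf1, Ncf4 and Sod2 had every LPS-treated library above every untreated one, 4 of 9, where 37.5% of all genes had ranges apart in either direction.

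**Figure D2:**
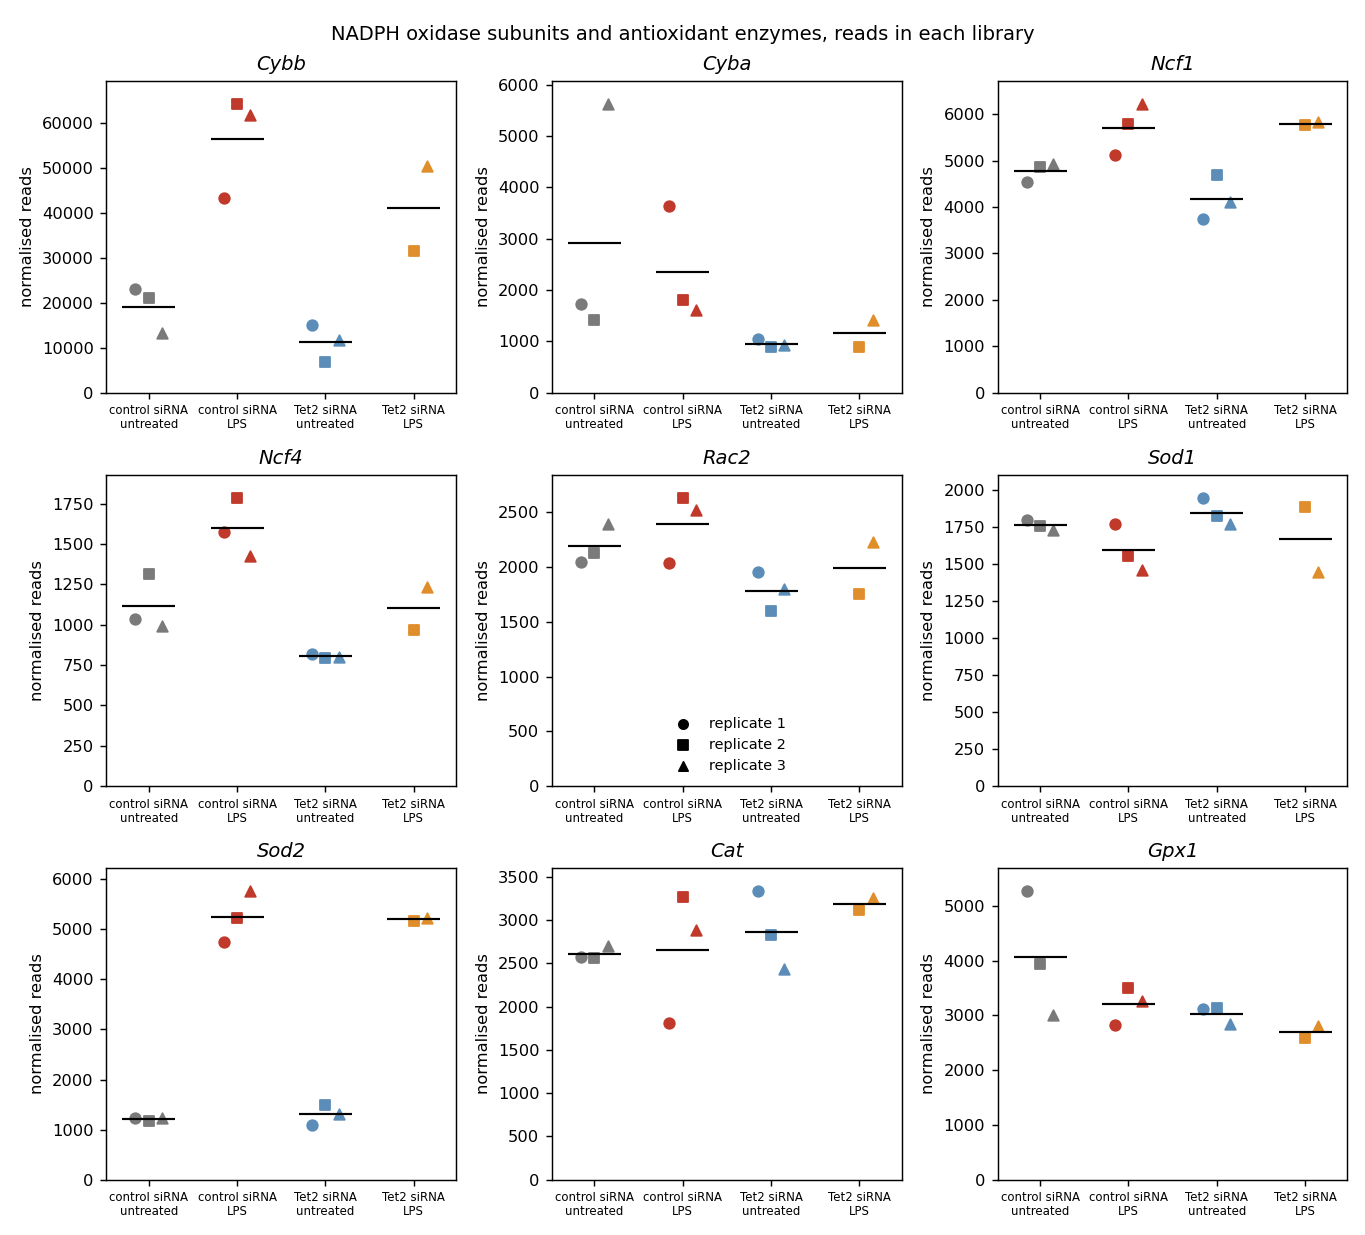
Normalised reads (vertical axes, from 0) of each of the 9 genes in every library of the 4 groups. Points are libraries, with a shape for each replicate number, and lines are group means (n = 3, 3, 3 and 2). Sod2 separates LPS-treated from untreated libraries with both siRNAs, and Cyba is highest in siScr_Ctrl replicate 3, at 5621.

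Cybb makes the catalytic membrane subunit, gp91phox. Untreated control siRNA cells held 23125, 21057 and 13172 normalised Cybb reads and LPS-treated ones 43258, 64103 and 61593. The groups did not overlap, and replicate 3 was the lowest of the untreated libraries and replicate 1 the lowest of the treated ones. Cybb rose by 1.58 on the log2 scale (SE 0.31, 95% confidence interval 0.90 to 2.25, adjusted p = 0.00230), or 2.98-fold. Over all 11 libraries it took 0.0436% to 0.326% of the reads.

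Cyba makes p22phox, the partner that keeps the catalytic subunit stable in the membrane. Its untreated control siRNA libraries held 1720.5, 1407 and 5621 normalised reads and the LPS-treated ones 3627, 1799 and 1613.5. siScr_Ctrl replicate 3 and siScr_LPS replicate 1 stood above the others, and the groups overlapped. The Cyba difference was -0.12 (SE 0.43, interval -1.06 to 0.82, adjusted p = 0.875) and turned to 0.49 without siScr_Ctrl replicate 3 and to 0.13 without both of those libraries. The number of reads per kb of Cybb for each of Cyba was 2.10, 2.34 and 0.367 in the untreated and 1.87, 5.58 and 5.98 in the treated control siRNA libraries. Sfpi1, which makes the myeloid transcription factor PU.1, was also highest in those 2 libraries of their groups, with 5274 and 7512 normalised reads beside 2592 to 2873 in the other untreated and 5083 to 5305 in the other treated control siRNA libraries.

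Of the genes for the cytosolic subunits and Rac2, Ncf4 passed the test. Ncf4, which makes p40phox, held 1035, 1314 and 990.8 normalised reads untreated and 1577, 1788 and 1428 after LPS. Its ranges lay apart, and it rose by 0.51 (SE 0.16, interval 0.17 to 0.86, adjusted p = 0.0333). That call ended with quantile normalisation (0.34, limma adjusted p = 0.155), in a fit of only these groups (adjusted p = 0.0821), with library weights (0.35, adjusted p = 0.0682) and without siScr_Ctrl replicates 1 or 3 (adjusted p = 0.0933 and 0.0836). It ended too without siScr_LPS replicates 1 or 2 (0.0590 and 0.126), siTet2_Ctrl replicate 3 (0.0579), or both libraries that stood apart in Cyba (0.44, adjusted p = 0.105). Ncf1, which makes p47phox, the organiser of assembly, held 4529.8, 4866 and 4933 reads untreated and 5115, 5797 and 6218 after LPS. Its ranges lay apart, and its difference of 0.25 (SE 0.14, interval -0.05 to 0.56) did not pass (adjusted p = 0.232) and was -0.13 with quantile normalisation. Rac2, the GTPase of blood cells that activates the complex, held 2044, 2130.3 and 2394 reads untreated and 2034, 2634 and 2519 after LPS. Its groups overlapped (0.12, SE 0.16, interval -0.22 to 0.47, adjusted p = 0.636), and with quantile normalisation the value was -0.14.

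Of the antioxidant enzymes only Sod2, which makes the manganese superoxide dismutase of mitochondria, passed the test. It held 1233, 1165 and 1238 normalised reads in untreated control siRNA cells and 4756, 5223 and 5767 after LPS. The untreated libraries lay close together and far below the treated ones. Sod2 rose by 2.08 (SE 0.15, interval 1.76 to 2.40, adjusted p = 4.18e-07), or 4.23-fold, the smallest p of the 9 members and rank 110 of all genes tested. The cytosolic copper and zinc enzyme made by Sod1 held 1797, 1756 and 1730.3 reads untreated and 1766, 1551 and 1459.5 after LPS, with overlapping groups (-0.15, SE 0.14, interval -0.46 to 0.17, adjusted p = 0.514). The number of reads per kb of Sod2 for each of Sod1 therefore went from 0.0725 to 0.0783 untreated to 0.294 to 0.432 after LPS.

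Cat, whose catalase sits mainly in peroxisomes, held 2572, 2567 and 2704 reads untreated and 1809, 3270 and 2885 after LPS. Replicate 1 of the treated cells was below, and the other 2 treated libraries above, all untreated ones, and the difference was -0.02 (SE 0.20, interval -0.46 to 0.42, adjusted p = 0.960). Gpx1 held 5272, 3940 and 3006 reads untreated and 2830, 3509 and 3259 after LPS. The groups overlapped, with replicate 1 of the untreated cells highest and their replicate 3 within the treated range. Its difference of -0.31 (SE 0.19, interval -0.72 to 0.09) did not pass (adjusted p = 0.262). It passed as a decrease with quantile normalisation (-0.62, limma adjusted p = 0.0248) and without siScr_Ctrl replicate 3 (-0.51, limma adjusted p = 0.0413).

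**Figure D3:**
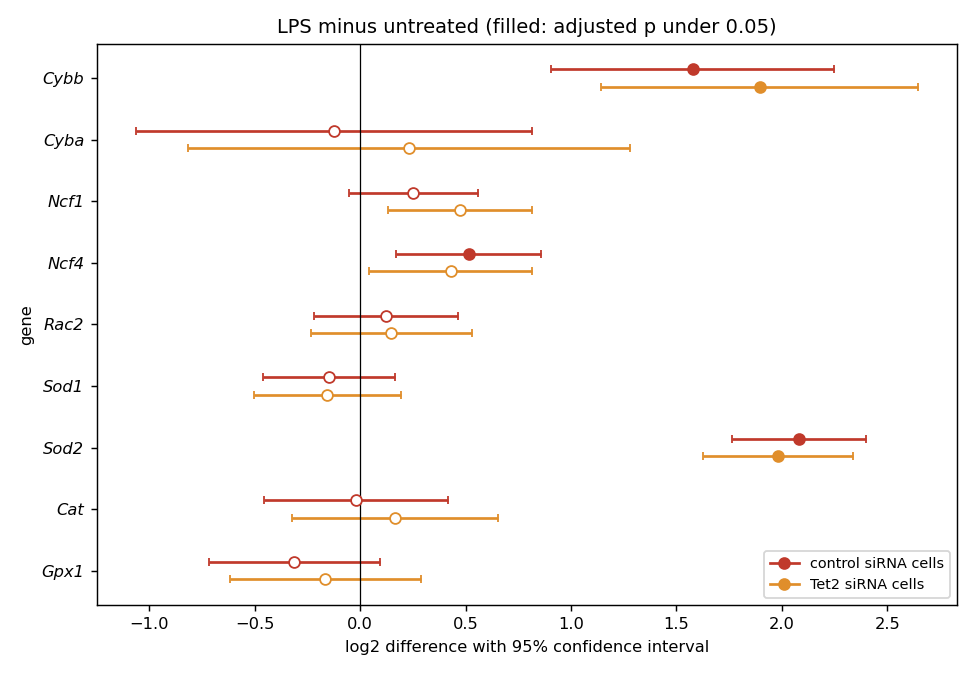
Log2 difference of LPS-treated minus untreated cells (horizontal axis, with 95% confidence intervals) for the 9 genes, in control siRNA cells (n = 3 and 3) and Tet2 siRNA cells (n = 2 and 3). Filled points passed at an adjusted p under 0.05: Cybb, Ncf4 and Sod2 with control siRNA, and Cybb and Sod2 with Tet2 siRNA.

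LPS in Tet2 siRNA cells gave the response after transfection against Tet2, with no library shared with the comparison above. Cybb and Sod2 rose and no member fell, 2 of 9, where 11.9% of all genes passed, 7.14% higher and 4.77% lower. The members had a median of 0.23, beside -0.00 over all genes. At an unadjusted p under 0.05 there were 4 members, which were Cybb, Sod2, Ncf1 and Ncf4, beside 22% of all genes. Ranges lay apart for Cybb, Ncf1, Ncf4 and Sod2 (higher) and for Gpx1 (lower), 5 of 9, where 43.2% of all genes had ranges apart.

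Untreated Tet2 siRNA cells held 15107, 6869 and 11717 normalised Cybb reads and LPS-treated ones 31415 and 50421. The lowest treated library held more than 2 times the highest untreated one. Cybb rose by 1.90 (SE 0.35, interval 1.14 to 2.65, limma adjusted p = 0.00236), or 3.72-fold, and the call ended without siTet2_LPS replicate 3 (1.55, limma adjusted p = 0.0529). Sod2 held 1099, 1494 and 1310.3 reads untreated and 5169.9 and 5236 after LPS, with the treated libraries close together. It rose by 1.98 (SE 0.16, interval 1.63 to 2.34, limma adjusted p = 3.52e-06), or 3.96-fold. These 2 increases were the members' largest in both cell populations.

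Ncf1 held 3746, 4685 and 4108 reads in untreated and 5759 and 5824 in LPS-treated Tet2 siRNA cells, apart from each other. Its difference of 0.47 (SE 0.16, interval 0.13 to 0.82) did not pass (limma adjusted p = 0.0774). It passed with library weights (0.49, limma adjusted p = 0.00402) and without both libraries that stood apart in Cyba (limma adjusted p = 0.0264), which enter this comparison only through the shared estimate of spread. Ncf4 held 820.9, 791.1 and 799 reads untreated and 968.6 and 1234 after LPS (0.43, SE 0.18, limma adjusted p = 0.166), and it too passed with library weights (0.44, limma adjusted p = 0.0311). Cyba held 1047, 888.4 and 925 reads untreated and 885.3 and 1421 after LPS, and Rac2 1958, 1597 and 1802 untreated and 1753 and 2225 after LPS. Both overlapped, with differences of 0.23 (interval -0.82 to 1.28) and 0.15 (interval -0.24 to 0.53).

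Gpx1 held 3110.3, 3126 and 2835 reads in untreated and 2579 and 2807 in LPS-treated Tet2 siRNA cells, just apart. The difference was -0.17 (SE 0.21, limma adjusted p = 0.771). Sod1 held 1946, 1822 and 1767 untreated and 1884 and 1447 after LPS (-0.16, limma adjusted p = 0.698), and Cat held 3338, 2833 and 2433 untreated and 3118 and 3259 after LPS (0.16, limma adjusted p = 0.796). Both overlapped between the groups.

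The difference between both LPS responses was then tested directly. No member passed (limma, adjusted p = 1.00 for each, 0 at an unadjusted p under 0.05), and neither did any other gene, with 281 or 2.25% of all genes at an unadjusted p under 0.05. Voom on the recovered reads called 0 genes as well. The Tet2 siRNA response minus the control siRNA response was 0.32 for Cybb (interval -0.69 to 1.33) and -0.10 for Sod2 (interval -0.57 to 0.38). It was 0.36 for Cyba (interval -1.05 to 1.76), which turned to -0.26 without siScr_Ctrl replicate 3 and was 0.71 without siScr_LPS replicate 1 and 0.10 without both. It was 0.22 for Ncf1 (interval -0.24 to 0.68) and -0.08 for Ncf4 (interval -0.60 to 0.44). For Rac2, Sod1, Cat and Gpx1 it was 0.03, -0.01, 0.18 and 0.15, with intervals from -0.49 to 0.54, -0.48 to 0.46, -0.47 to 0.84 and -0.46 to 0.76. These intervals leave room for sizeable differences, and the test does not show that the responses were alike.

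The next comparison set Tet2 siRNA beside control siRNA where no LPS was given. No member passed the test, where 0% of all genes were higher and 0.00801% lower (limma), and voom on the recovered reads called 0 genes. At an unadjusted p under 0.05 there were 3 members, Cybb, Cyba and Ncf4, beside 10.8% of all genes. The 5 oxidase subunits all lay below 0, with a median of -0.44, and the 4 antioxidant enzymes had a median of 0.08, beside -0.03 over all genes. Ranges lay apart, lower with Tet2 siRNA, for Cyba, Ncf4 and Rac2, 3 of 9, where 17.6% of all genes had ranges apart in either direction.

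Cyba differed by -1.30 (SE 0.43, interval -2.24 to -0.36, limma adjusted p = 0.386), with all 3 Tet2 siRNA libraries, at 888.4 to 1047 normalised reads, below the lowest control, at 1407. Without siScr_Ctrl replicate 3, which held 5621, the value was -0.69 (limma adjusted p = 0.841). Cybb differed by -0.80 (SE 0.31, interval -1.47 to -0.12, limma adjusted p = 0.414). The highest Tet2 siRNA library, at 15107, overlapped only the lowest control, siScr_Ctrl replicate 3, at 13172. The other controls, at 21057 and 23125, lay above every Tet2 siRNA library. Leaving out single libraries gave Cybb differences from -1.05 to -0.48. Ncf4 differed by -0.44 (SE 0.16, interval -0.79 to -0.10, limma adjusted p = 0.400), with Tet2 siRNA libraries at 791.1 to 820.9 beside 990.8 to 1314. Rac2 was at -0.29 and Ncf1 at -0.20, with intervals that included 0.

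Among the antioxidant enzymes Gpx1 was at -0.39 (SE 0.19, interval -0.79 to 0.02, limma adjusted p = 0.464). Its groups overlapped only through siScr_Ctrl replicate 3, at 3006 normalised reads. The other controls held 3940 and 5272, beside 2835 to 3126 with Tet2 siRNA. Leaving out single libraries gave Gpx1 differences from -0.59 to -0.19. Sod1, Sod2 and Cat were at 0.06, 0.09 and 0.12. With libraries weighted by their spread, Cybb (-0.84), Cyba (-0.78), Ncf4 (-0.58) and Gpx1 (-0.56) passed as lower, with limma adjusted p of 0.00917, 0.0233, 0.00689 and 0.00740. Those weights ran from 0.172 for siScr_Ctrl replicate 3 to 44.3 for siTet2_Ctrl replicate 3. As siTet2_Ctrl replicates 1 and 2 had 0.691 and 0.524, the untreated Tet2 siRNA mean in that fit rested mostly on replicate 3. That fit called 729 genes lower and 414 higher in all. A second estimator gave siTet2_Ctrl replicate 3 the highest weight again, at 9.57. Its calls were Cybb, Ncf4 and Gpx1, with limma adjusted p of 0.0379, 0.0340 and 0.0326, among 215 genes lower and 83 higher.

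**Figure D4:**
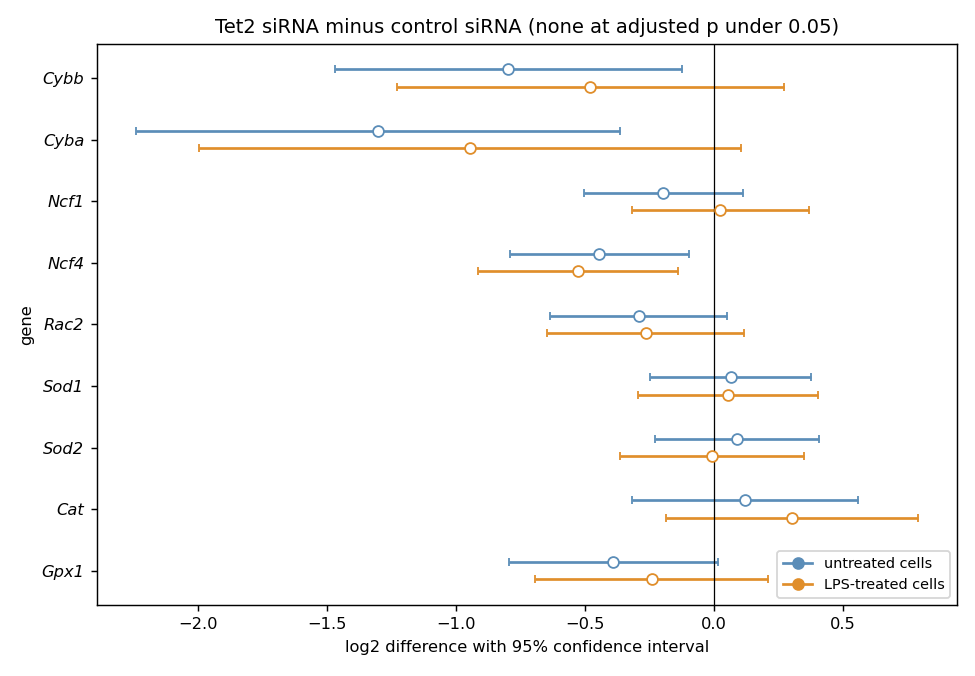
Log2 difference of Tet2 siRNA minus control siRNA cells (horizontal axis, with 95% confidence intervals) for the 9 genes, untreated (n = 3 and 3) and after LPS (n = 2 and 3). All points are open because none passed at an adjusted p under 0.05, and the widest intervals are those of Cyba.

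Tet2 siRNA in LPS-treated cells gave no call (limma, 0 of 9 and 0% of all genes, with voom calling 0 genes). At an unadjusted p under 0.05 there was 1 member, Ncf4, beside 17.1% of all genes, at -0.53 (SE 0.18, interval -0.91 to -0.14, limma adjusted p = 0.179). Its Tet2 siRNA libraries, at 968.6 and 1234, lay below the control ones, at 1428 to 1788. Cyba was at -0.95 (SE 0.49, limma adjusted p = 0.340), and at -0.59 without siScr_LPS replicate 1, which held 3627 reads. Cybb was at -0.48 (interval -1.23 to 0.27), Rac2 at -0.27 and Ncf1 at 0.02. Gpx1 was at -0.24, Cat at 0.30, Sod1 at 0.06 and Sod2 at -0.01 (interval -0.36 to 0.35). Ranges lay apart, lower with Tet2 siRNA, for Cyba, Ncf4 and Gpx1, 3 of 9, where 38.9% of all genes had ranges apart. Each siRNA comparison shares its libraries with an LPS comparison, so their values are set side by side and not counted as separate support.

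The microglia and macrophage marker list lay lower with Tet2 siRNA as well. All 10 of its markers were below 0 in both siRNA comparisons, with medians of -0.72 untreated and -0.75 after LPS and 0 called. Their summed reads ranged from 62008 to 83896 in untreated and 65833 to 77323 in LPS-treated control siRNA cells, and from 35564 to 53488 and 38644 to 52382 with Tet2 siRNA. The part of this shift in the oxidase subunit values was not tested. In bulk RNA fewer cells of a kind and less RNA per cell cannot be told apart.

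Two-sided exact permutation tests of single members gave the smallest p these groups allow wherever ranges lay apart, which is 0.1 for 3 against 3 libraries and 0.2 for 2 against 3. These designs cannot reach 0.05, so the calls above rest on limma's spread shared across genes and groups.

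Counts of calls in the 6 pathway lists below are to be read beside the shares of all genes called with LPS. These were 13.2% higher and 10.4% lower in control siRNA cells, and 7.14% higher and 4.77% lower in Tet2 siRNA cells. A count near those shares is not a response particular to its list. Other parts of the oxidase were read from a list of 13 partners and related oxidases, of which 5 had enough reads to test. With LPS 1 of 5 rose in control siRNA cells and 1 of 5 in Tet2 siRNA cells, with medians of -0.047 and 0.069, and 0 fell. It was Hvcn1, the proton channel that balances the charge moved by the oxidase, with 481, 530.3 and 449.7 normalised reads untreated and 924.6, 1034 and 1155 after LPS with control siRNA. Its groups did not overlap, and it rose by 1.04 (SE 0.24, limma adjusted p = 0.00618). With Tet2 siRNA it held 312.7, 338.8 and 315.1 reads untreated and 483.5 and 1125 after LPS (1.13, limma adjusted p = 0.0131), a call that ended without siTet2_LPS replicate 3 (0.54, limma adjusted p = 0.226). Rap1a (0.15) and BC017643, also named Cybc1 and a chaperone of the catalytic subunit (-0.23), did not pass, and Rac1, the widely expressed Rac, was at -0.05. Duoxa1, a maturation factor of dual oxidases, was at -0.23 with control siRNA and -0.49 with Tet2 siRNA and averaged at most 6 normalised reads in a group. The catalytic subunits of other NADPH oxidases (Nox1, Nox3, Nox4, Duox1 and Duox2) held at most 14.1 normalised reads in any library and were not tested, so that Cybb was the only catalytic subunit of the family listed with enough reads to test.

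Of 14 genes that act on assembly or activation 12 were tested, and with LPS in control siRNA cells 1 rose and 3 fell. Prkcd, a protein kinase C that phosphorylates the cytosolic subunits, rose by 0.88 (SE 0.25, limma adjusted p = 0.0232), from 3885 to 7405 normalised reads on average. Arhgap25, a GTPase-activating protein that switches Rac off, fell by 2.24 (SE 0.22, limma adjusted p = 8.29e-06), from 1109 to 210.05 reads. Pak1, a kinase bound by active Rac, fell by 0.82 and Mapk14, the p38 kinase, by 0.65. With Tet2 siRNA 0 rose and 2 fell. Arhgap25 was at -2.02 and Mapk14 at -0.71, and the Mapk14 call ended without siTet2_Ctrl replicate 3 (limma adjusted p = 0.0534) or siTet2_LPS replicate 3 (0.116). Without both libraries that stood apart in Cyba the counts were 0 higher and 2 lower, and 0 higher and 3 lower, with the calls of Prkcd and Pak1 lost. The Prkcd call also ended with quantile normalisation (0.48, limma adjusted p = 0.198) and without siScr_Ctrl replicates 2 or 3 or siScr_LPS replicate 1, and the Pak1 call without siScr_Ctrl replicate 2 or siScr_LPS replicate 1.

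Enzymes that remove peroxide or renew the reductants were read from 2 further lists. Of 8 related antioxidant enzymes tested, of 12 listed, 2 rose and 0 fell with control siRNA (median 0.18). They were Prdx1, a cytosolic peroxiredoxin, by 1.25 (SE 0.23, limma adjusted p = 0.00152) and Prdx5 by 0.90 (limma adjusted p = 0.00344), while Gpx4 at -0.44 and Prdx4 at 0.32 did not pass. With Tet2 siRNA 1 rose, Prdx1 by 0.90 (limma adjusted p = 0.0386), a call kept in 13 of 23 alternatives. Prdx5 was at 0.40 there (limma adjusted p = 0.305).

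Of 15 glutathione and thioredoxin enzymes, all tested, 5 rose and 0 fell with control siRNA (median 0.30) and 4 rose and 0 fell with Tet2 siRNA (median 0.32). Txnrd1, the cytosolic thioredoxin reductase, rose by 2.16 (SE 0.22, limma adjusted p = 1.07e-05), from 5371 to 23444 normalised reads on average, and by 1.40 with Tet2 siRNA. Srxn1, the sulfiredoxin that repairs overoxidised peroxiredoxins, rose by 2.05 and 1.64, and Gsr, glutathione reductase, by 1.10 and 0.66. Gclm, a subunit of the first enzyme of glutathione synthesis, rose by 0.95 and 0.73. Gss, glutathione synthetase, rose by 1.11 with control siRNA and was at 0.63 with Tet2 siRNA (limma adjusted p = 0.0774). The calls of Gsr and Gclm with Tet2 siRNA each ended without siTet2_Ctrl replicate 3 or siTet2_LPS replicate 2 or 3, which left 2 genes higher, and that of Gsr also without siTet2_Ctrl replicates 1 or 2.

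Of 9 enzymes that supply NADPH, the substrate of the oxidase, 2 rose and 0 fell with control siRNA (median 0.11), and 0 of 9 passed with Tet2 siRNA (median -0.11). Me1, the malic enzyme of the cytosol, rose by 0.81 (SE 0.17, limma adjusted p = 0.00324). Pgd, of the pentose phosphate pathway, rose by 0.55 (limma adjusted p = 0.0310). The call of Pgd was kept in 15 of 23 alternatives and lost without any one of siScr_Ctrl replicates 1, 2 or 3 and siScr_LPS replicates 1 or 2, with values down to 0.12 under quantile normalisation. Idh1, an isocitrate dehydrogenase, was at -0.72 (limma adjusted p = 0.0659) and Taldo1 at 0.43 (limma adjusted p = 0.105). Without both libraries that stood apart in Cyba, 1 rose and 1 fell of the 9 with control siRNA, and 0 rose and 1 fell with Tet2 siRNA.

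Of 9 transcriptional regulators tied to these genes 7 rose and 1 fell with LPS in control siRNA cells (median 0.82), and 5 rose and 1 fell with Tet2 siRNA (median 0.98). Without both libraries that stood apart in Cyba the counts were 5 and 1, and 5 and 2. With control siRNA 4 rose without siScr_Ctrl replicates 1 or 2 or siScr_LPS replicate 1. With Tet2 siRNA 3 rose without siTet2_Ctrl replicates 2 or 3 or siTet2_LPS replicate 2, and 2 without siTet2_LPS replicate 3. Irf1, an interferon regulatory factor, rose by 5.24 (SE 0.26, limma adjusted p = 1.81e-08), from 243.9 to 10507 reads on average, and by 4.10 with Tet2 siRNA. Nfkb1, an NF-kB subunit, rose by 3.42 and 2.97, and Nfe2l2, which makes NRF2, the activator of many antioxidant genes, by 1.55 and 1.19. Foxo3, a transcription factor known to act on Sod2 and Cat, fell by 1.74 and 1.17. The call of Nfe2l2 with Tet2 siRNA ended without siTet2_LPS replicate 3 (limma adjusted p = 0.127).

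**Figure D5:**
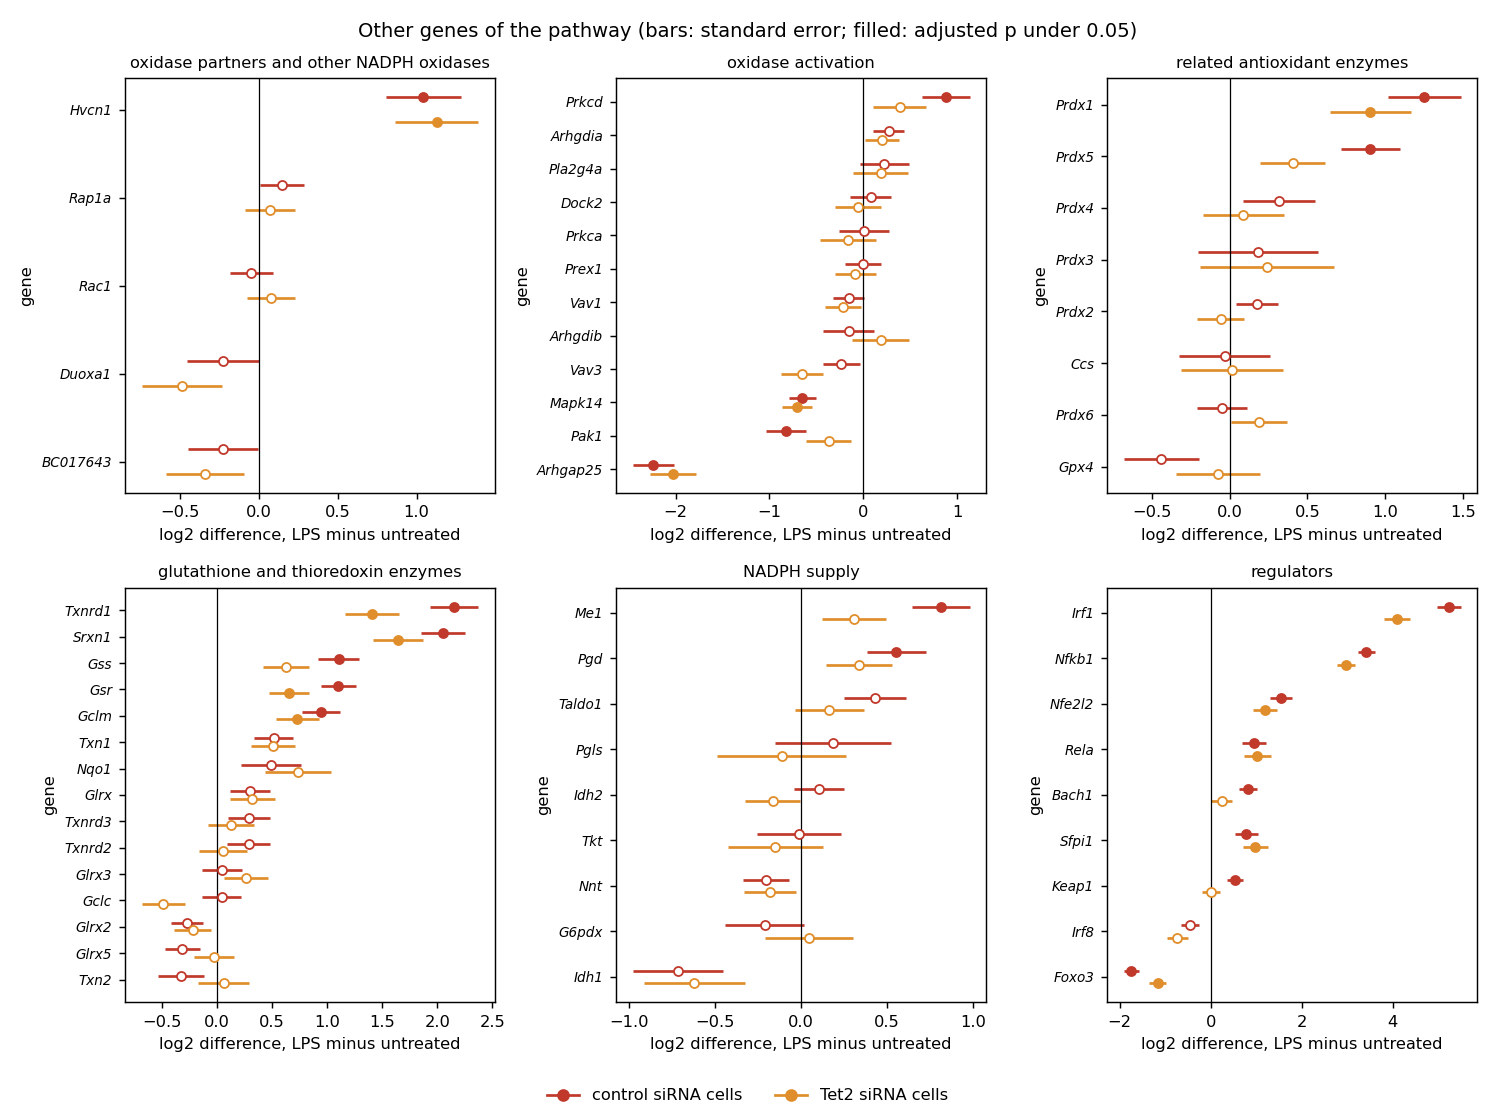
Log2 difference of LPS-treated minus untreated cells (horizontal axes, bars are standard errors) for the tested genes of the 6 pathway lists, in control siRNA cells (n = 3 and 3) and Tet2 siRNA cells (n = 2 and 3). Filled points passed at an adjusted p under 0.05, with 7 of 9 regulators higher in control siRNA cells and 1 of 5 oxidase partners, Hvcn1. Of all genes 13.2% were higher in that comparison.

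In both siRNA comparisons and in the difference between LPS responses 0 genes of these 6 lists passed (limma, and 0 genes of the whole table with voom). The smallest p among them belonged to Irf1 in LPS-treated cells, at -1.18 (SE 0.29, limma adjusted p = 0.122). Next were Prdx5 at -0.78 (limma adjusted p = 0.124), Irf8, a myeloid interferon regulatory factor, at -0.81 (limma adjusted p = 0.128), and Prkcd at -0.88 (limma adjusted p = 0.159). In untreated cells the values with the smallest p were Me1 at 0.50 and Glrx, a glutaredoxin, at -0.49, with limma adjusted p of 0.393 and 0.404. After these came Sfpi1 at -0.67, Irf8 at -0.53, Hvcn1 at -0.55 and Gsr at 0.35. Their limma adjusted p was 0.404, 0.411, 0.445 and 0.459. Prdx6, a peroxiredoxin, was at 0.29 untreated and 0.53 after LPS (limma adjusted p = 0.505 and 0.179). Nnt, the mitochondrial transhydrogenase that makes NADPH, was at -0.26 untreated (limma adjusted p = 0.474), and Pgls, of the pentose phosphate pathway, at -0.60 after LPS (limma adjusted p = 0.440). The differences between LPS responses with the smallest p were -1.13 for Irf1, -0.75 for Txnrd1 and 0.58 for Foxo3. Their unadjusted limma p was 0.0112, 0.0396 and 0.0409. Others were -0.53 for Gclc, the catalytic subunit of the first enzyme of glutathione synthesis, and -0.42 for Vav3, an activator of Rac. Idh2 was at -0.27 and Prdx2 at -0.23, with a limma adjusted p of 1.00 for each.

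For each member called in a comparison, the genes with the most similar log2 values over the 11 libraries were found, as a description, since the libraries share treatments and depth. Cybb was most like Stap1 (Pearson r = 0.979) and Cpeb4 (0.978), with Stap1 at 1929, 4004, 1508 and 3481 mean normalised reads in the 4 groups, in the order given at the start. Ncf4 was most like Ms4a6c (0.977) and Pik3ap1 (0.954), with Pik3ap1 at 8785, 14083, 6325 and 8712. Sod2 was most like Trim13 and Zc3h12c (0.997 for both), with Zc3h12c at 687.2, 7663, 827.3 and 8369.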

How the data were processed

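RNA was extracted with TRIzol, and polyadenylated RNA was made into directional libraries, per the labels' protocols. Trim Galore 0.3.3, TopHat2 2.0.9, DESeq2 and the mm9 build were used, per the submitters' processing notes, while for the DESeq2 version, read counter, annotation and strandedness the sources used here give nothing. Cyba, Ncf1 and Sod1 overlap genes on the opposite strand in the GRCm38 annotation (Gm20388, Gtf2ird2 and Scaf4), with 0 shared exon bases. The authors deposited 1 table of log2 variance-stabilised values, with 26061 genes in 11 libraries. Its lowest value, 4.02, is that of a gene with 0 reads. When the transform was inverted, 100% of values came out within 0.01 of a whole read, which gave the normalised reads printed. In 25 rows a spreadsheet had turned the gene name into a date, and they are not named. On this scale, changes of genes with few reads are understated.

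The deposited log2 values were tested with limma 3.58.1 (R 4.3.3). The 11 libraries entered one model with a mean per group, a variance trend, two-sided tests and Benjamini-Hochberg adjustment over 12486 genes, those that exceeded the lowest value by 1 log2 unit or more in at least 2 libraries. Calls are at an adjusted p under 0.05. The procedure was tested on data simulated for LPS in control siRNA cells, with no library made to stand apart. That test does not cover libraries such as siScr_Ctrl replicate 3. Single members were also tested by exact permutation with scipy 1.17.1. Levels per kb used merged GENCODE exons of GRCm38, as no mm9 annotation was used here, and promoter sequences came from RefSeq (GRCm38.p6).

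Named were the 9 members, Tet2, up to 4 genes of each pathway list with the smallest p for LPS in control siRNA cells and up to 2 for each other comparison, and the 2 genes most like each called member. Sfpi1 values per library, Gclm and a few list genes outside that rule, were added after their values were seen, and 2 genes were left out of the lists and are not reported here. The members, lists, rules and alternatives were chosen with earlier results of these data known. Alternatives were the filter, quantile and median scaling, no variance trend, only the groups compared, a replicate block, library weights and leaving out each library. Limma's voom on the recovered reads with the authors' size factors, leaving out both libraries that stood apart in Cyba, a second weight estimator and the removal of GC content and length trends, and levels per kb without siScr_Ctrl replicate 3, were chosen after seeing the data.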

Additional observations from a re-analysis of the deposited data

How the results depend on the processing

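Of 1026 member values under the alternatives, 938 kept their direction and call, 16 gained a call, 11 lost one and 61 changed sign, none of those 61 a call in either fit. The calls of Sod2 in both cell populations and of Cybb in control siRNA cells held in each alternative run. The call of Ncf4 did not, nor did that of Cybb in Tet2 siRNA cells, and the cause was not tested. With LPS in Tet2 siRNA cells, library weights called 1657 genes higher and 1415 lower (second estimator 1487 and 1245) and 4 members higher with both, and 933 genes were lower without both libraries that stood apart in Cyba. Leaving out single libraries gave 504 to 1038 genes higher, 288 to 736 lower and 1 to 2 members higher. With LPS in control siRNA cells 1 member was lower under quantile normalisation, and 0 to 1 without single libraries.

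For Tet2 siRNA in untreated cells the weights called 414 genes higher and 729 lower, with 4 members lower (83, 215 and 3 with the second estimator). In both weighted fits siTet2_Ctrl replicate 3 held most of the weight of its group, also where LPS was compared in Tet2 siRNA cells. The 1 gene lower became 0 with no filter, quantile normalisation, only the groups compared, voom, GC content and length trends removed, or without both libraries that stood apart in Cyba, and 0 to 1 without single libraries. For Tet2 siRNA after LPS the weights called 2 genes higher and 11 lower (4 lower with the second estimator), GC and length correction 1 lower and the fit without both libraries 1 lower. Leaving out single libraries gave 0 to 19 higher and 0 to 101 lower, both highest with siScr_LPS replicate 3 left out.

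Values that changed sign follow. With weights, Cyba and Cat were at 0.14 and 0.17 with LPS in control siRNA cells (second estimator 0.13 and 0.17), Cat at -0.072 (-0.032) with Tet2 siRNA untreated and Ncf1 at -0.048 (-0.039) with Tet2 siRNA after LPS. The differences between responses were then 0.091 (0.044) for Ncf4, -0.11 (-0.11) for Rac2 and 0.12 (0.11) for Sod1. Quantile normalisation gave Ncf1 -0.13 and Rac2 -0.14 with LPS in control siRNA cells, Sod2 0.12 with Tet2 siRNA after LPS, and differences between responses of 0.025 for Ncf4, 0.071 for Sod1 and 0.028 for Sod2. GC and length correction gave Cyba 0.025 with LPS in control siRNA cells, Sod1 -0.0018 and Sod2 -0.063 with Tet2 siRNA untreated, and Sod1 -0.048 with Tet2 siRNA after LPS. Without both libraries, Cyba and Cat were at 0.13 and 0.25 with LPS in control siRNA cells, Ncf1 at -0.052 with Tet2 siRNA after LPS, and the differences between responses at -0.15 for Rac2, 0.079 for Sod1 and -0.091 for Cat.

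Without single libraries, values with LPS in control siRNA cells ran from -0.50 to 0.49 for Cyba and -0.19 to 0.23 for Cat. With LPS in Tet2 siRNA cells they ran from -0.10 to 0.56 for Cyba, -0.021 to 0.32 for Rac2 and -0.34 to 0.031 for Sod1. With Tet2 siRNA untreated Sod2 ran from -0.013 to 0.20. With Tet2 siRNA after LPS Ncf1 ran from -0.052 to 0.088, Sod1 from -0.13 to 0.24 and Sod2 from -0.077 to 0.062. Differences between responses ran from -0.067 to 0.35 for Cat, -0.26 to 0.73 for Cyba, -0.022 to 0.66 for Cybb, -0.055 to 0.35 for Gpx1, -0.25 to 0.086 for Ncf4, -0.14 to 0.19 for Rac2, -0.20 to 0.18 for Sod1 and -0.21 to 0.0053 for Sod2. Where 1 library was left in the LPS-treated Tet2 siRNA group, it is assumed to vary like the others.

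Replicate numbers are shared by the groups. The 15 pairs of libraries with the same number had deviations that correlated between -0.283 and 0.633, 8 of them over 0.1. Pairs with different numbers ran from -0.633 to 0.555. In the LPS-treated Tet2 siRNA group, with 2 libraries, deviations from the group mean mirror each other, so these extremes are fixed by those of its other library. The correlations therefore do not settle whether the number pairs libraries. No pairing entered the main fit. A replicate block called 1761 genes higher and 1496 lower with LPS in control siRNA cells, 932 and 649 in Tet2 siRNA cells, and 0 and 1 and 0 and 0 with Tet2 siRNA before and after LPS. It changed no member's call and turned the sign of Ncf1 with Tet2 siRNA after LPS (-0.038) and of the differences between responses of Rac2 (-0.0047) and Sod1 (0.034).

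Of 36 calls of pathway list genes, 21 held in each of the 23 alternatives. Voom with TMM scaling was not run, and the authors' size factors were used in its place. No scaling moved the median of all genes by as much as 0.1 log2 units, but single members moved further under quantile normalisation. With LPS in control siRNA cells Ncf1 went from 0.25 to -0.13, Rac2 from 0.12 to -0.14 and Gpx1 from -0.31 to -0.62. With Tet2 siRNA after LPS Sod2 went from -0.01 to 0.12. With 2 to 3 libraries a group, a difference that missed the threshold is not shown to be absent.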
